A study of Mus musculus with 62 samples.

Results

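The genes examined here are 10 genes of antioxidant defence: the superoxide dismutases Sod1, Sod2 and Sod3, the peroxide-removing enzymes Cat, Gpx1 and Gpx4, the transcription factors Bach1 and Nfe2l2, and the inducible enzymes Hmox1 and Nqo1. They were chosen by symbol, as 10 of the 27179 genes in the count tables, because Sod1 and Bach1 lie in the part of chromosome 16 that is triplicated in Ts65Dn mice. The other 8 lie outside the triplicated segments. The question was whether Sod1 and Bach1 were higher in trisomic brain, and whether the other enzymes, above all targets of BACH1 such as Hmox1, differed with them. Bulk RNA-seq was available from E17.5 forebrain of 8 euploid and 7 Ts65Dn embryos, whose sex the labels do not give. It was also available from hippocampus at 6 weeks of age, in males (8 euploid, 7 Ts65Dn, 8 Ts65Dn;Brwd1+/-) and females (8 of each genotype). All animals had a mixed DBA/2J and B6EiC3Sn/J background, and each library came from 1 animal, without pooling. Ts65Dn is a segmental trisomy: the mice carry an additional copy of distal chromosome 16 and of the proximal end of chromosome 17, so it models an extra copy of many genes at once and not of Sod1 or Bach1 alone. Ts65Dn;Brwd1+/- animals keep that trisomy, but 1 of their copies of Brwd1 carries the repro5 allele, from mutant males mated to Ts65Dn females.

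SOD1 turns superoxide into hydrogen peroxide in the cytosol, SOD2 does so in mitochondria and SOD3 outside the cell, and catalase and the glutathione peroxidases then remove peroxides. NRF2, the product of Nfe2l2, activates many genes of this defence through antioxidant response elements, and BACH1, a heme-binding repressor, occupies the same elements and holds genes such as Hmox1 down until heme displaces it. Hmox1 encodes heme oxygenase 1, which degrades heme, and Nqo1 encodes a quinone reductase that is widely used as a readout of NRF2.

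All 10 genes had enough reads to be tested in both tissues, with the lowest counts in any library being 42 reads for Nqo1 and 55 for Sod3. Libraries held a median of 23.8 M reads in euploid embryos (at most 62.6 M), 18.3 to 58.7 M in Ts65Dn embryos (median 43.1 M) and 33.6 to 137.1 M in adults. Neuronal markers were high in every library, with 762 to 1043 CPM (reads scaled to library size) summed over 6 genes in embryos and 5418 to 7511 in adults, as the labelled tissue should have. Choroid plexus markers varied widely, from 32.7 to 6288 CPM over 7 genes in adult libraries. Of the sex-linked transcripts, Ddx3y lay above Xist in euploid embryos EU3 and EU6 and in Ts65Dn embryos TS1, TS2 and TS7. It lay below Xist in the other embryos, so both embryo groups mixed the sexes. With Ddx3y as a covariate the same 3 of the 10 genes were called in embryos as without it. 4 adult libraries labelled as trisomic had the triplicated segments at euploid dose: male Ts65Dn animal B145, male Ts65Dn;Brwd1+/- animals T35 and B138, and female Ts65Dn;Brwd1+/- animal B136. Female euploid B85 and male Ts65Dn B88 had the sex-linked transcripts of the other sex. The labels were kept for the main values, and results that rest on these libraries are given with and without them. The labels name animals but no separate cultures or litters for each, so p-values measure the spread between these animals. Because these are bulk samples, fewer cells of a type and less RNA per cell cannot be told apart.

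Per length of exon, Sod1 was the most abundant of the 10 genes in all 8 groups. In euploid embryos its median was 255 RPKM (reads per kilobase of exon, scaled to library size), followed by Gpx1 at 89.0, Gpx4 at 58.0, Cat at 23.7, Bach1 at 15.1 and Sod2 at 12.2 RPKM. Nfe2l2 (4.34), Hmox1 (3.95), Nqo1 (2.06) and Sod3 (0.998 RPKM) were the least abundant. The ranges over embryos overlapped between Bach1 and Sod2, between Nfe2l2 and Hmox1, and between Hmox1 and Nqo1, so the order of these neighbours is within their spread. In male euploid hippocampus the 5 highest were Sod1 at 178, Gpx4 at 51.3, Gpx1 at 42.2, Sod2 at 19.8 and Cat at 18.4 RPKM, where only Sod2 and Cat overlapped. Below them Nfe2l2, Sod3, Hmox1, Nqo1 and Bach1, with medians from 6.68 to 2.61 RPKM, each overlapped the next. Bach1, the repressor, thus ranked the fifth in euploid embryos and the lowest in euploid hippocampus of both sexes. The tissues were counted in separate tables, and these levels were set side by side without a test.

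The promoters of the pair that is triplicated are shown because both genes lie in the triplicated segment of chromosome 16 and because antioxidant response elements are the sites that BACH1 and NRF2 share. Sod1 (gene 20655) spans chr16:90220762-90226333 of mm10 and Bach1 (gene 12013) spans chr16:87698954-87733346, and the stretches are the 120 bases before each start on the plus strand, from RefSeq on GRCm38.p6. Capitals in the Sod1 sequence mark the core of an antioxidant response element (TGACNNNGC, read here on the minus strand), and capitals in the Bach1 sequence mark GC boxes (GGGCGG).
Sod1, chr16:90220642-90220761: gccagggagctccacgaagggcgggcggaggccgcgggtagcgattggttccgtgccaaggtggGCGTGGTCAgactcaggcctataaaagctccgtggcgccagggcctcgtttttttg
Bach1, chr16:87698834-87698953: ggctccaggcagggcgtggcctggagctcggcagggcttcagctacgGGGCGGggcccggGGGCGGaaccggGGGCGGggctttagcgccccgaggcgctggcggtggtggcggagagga
Searched on both strands, the element's core was in 12.4% of all 32851 RefSeq promoter windows (250 bases before to 50 after a start) and in 2 of the 11 windows of these genes, 1 of Sod1 and 1 of Nfe2l2. GC boxes were in 35.7% of all windows and in 10 of the 11. Windows were found for 8 of the 10 genes, with none for Hmox1 and Sod3. A match is a run of letters and does not show that a factor binds there.

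In E17.5 forebrain, 3 of the 10 genes were higher in Ts65Dn than in euploid embryos (Sod1, Bach1 and Sod3), and none was lower. Among all 16395 genes tested, 1.35% were called in either direction at an adjusted p-value under 0.1. Sod1 measured 148, 164 and 176.4 CPM (lowest, median and highest) in euploid embryos and 216, 234 and 273 CPM in Ts65Dn embryos. The groups did not overlap. Its log2 fold change was 0.54 (SE 0.06, adjusted p = 4.90e-05), a 1.45-fold difference, against 0.585 on the log2 scale for 3 copies over 2. Bach1 measured 69.4, 88.5 and 96.6 CPM in euploid and 114.1, 121.8 and 140.8 CPM in Ts65Dn embryos, again without overlap. It was 0.52 higher on the log2 scale (SE 0.07, adjusted p = 0.000369), though not called in the embryos of the higher title number alone (0.51, adjusted p = 0.261). The other triplicated genes tested at this stage, 131 in all, had a median log2 fold change of 0.56 (quartiles 0.47 and 0.69), and 61.8% of them were called.

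**Figure D1:**
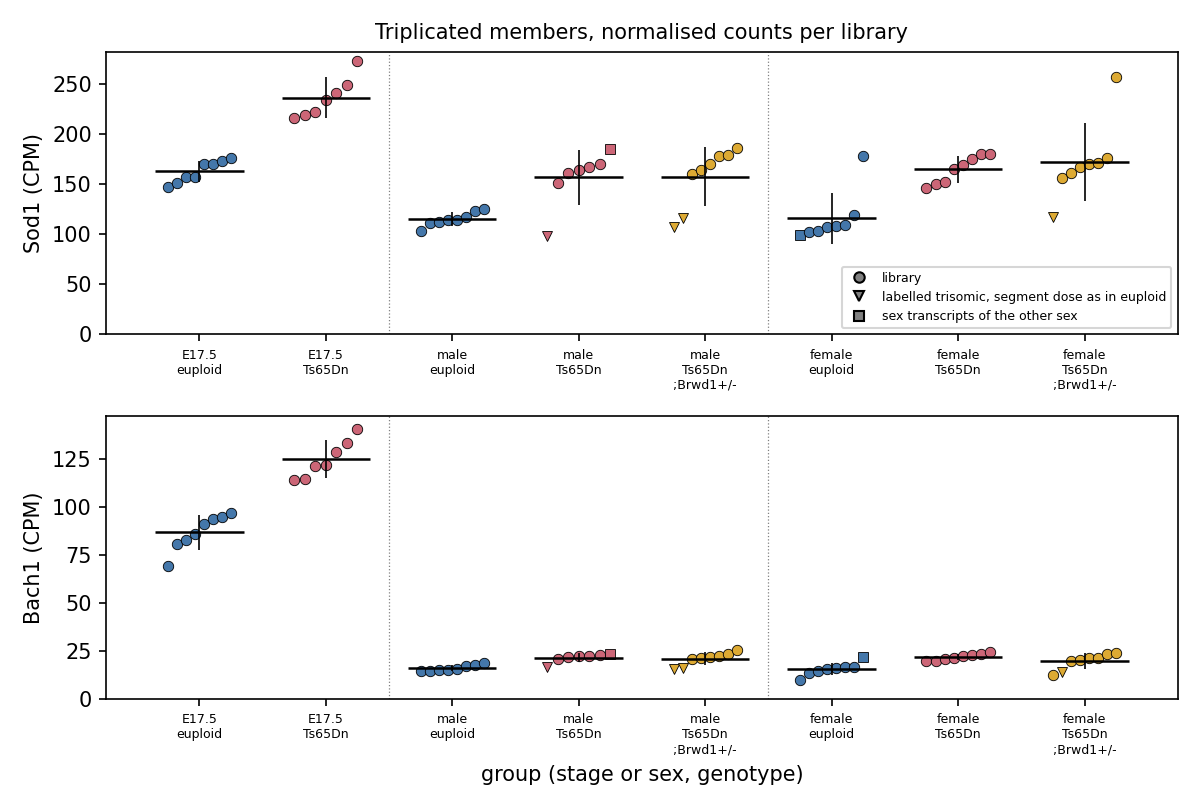
Sod1 and Bach1 in CPM (y axes, starting at 0) by group (x axis), with 1 point per library, a horizontal bar at the group mean and a vertical bar of ± 1 SD; triangles mark libraries labelled trisomic with euploid dose of the segments, squares those with sex-linked transcripts of the other sex. Both genes are higher in every trisomic embryo than in any euploid one, and in adults the trisomic points that reach down among the euploid ones include the triangles.

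Sod3, the extracellular superoxide dismutase (gene 20657, chr5:52363804-52369738), is the only gene of the 10 outside the segments that passed the test in any comparison. It measured 2.45, 3.73 and 4.99 CPM in euploid embryos and 4.61, 5.84 and 7.02 CPM in Ts65Dn embryos. The groups overlapped slightly, with 5 of 7 Ts65Dn embryos above every euploid one and 7 of 7 above the euploid median. The log2 fold change was 0.67 (SE 0.15, adjusted p = 0.041). Some markers of other cell types were also called higher in these embryos, where 1.35% of all genes were called. All 7 choroid plexus markers had log2 fold changes above 0, from 0.42 to 1.18 with 0 called, and their summed level ran from 47.9 to 1409 CPM in euploid and from 657 to 1525 CPM in Ts65Dn embryos. Of 5 fibroblast and meninges markers, with log2 fold changes from -0.56 (Col1a1) to 0.80, 1 was called (Slc6a13, 0.80), with sums of 120 to 1170 CPM in euploid and 244 to 432 CPM in Ts65Dn embryos. Of 5 astrocyte markers, from -0.14 (Gfap) to 0.59, 1 was called (Gja1, 0.59), with sums of 326 to 553 and 439 to 534 CPM. Of 7 microglia and macrophage markers, from -0.16 to 0.56, 1 was called. None of the neuron, oligodendrocyte, endothelial or erythroid markers was. Over the 15 embryos, Pearson's r of Sod3 was 0.76 with oligodendrocyte markers, which were not used as a covariate. It was 0.70 with fibroblast, 0.61 with astrocyte and 0.33 with choroid plexus markers. With the mean level of the choroid plexus, fibroblast or astrocyte markers as a covariate, Sod3 had log2 fold changes of 0.72, 0.52 and 0.57. These covariates were chosen after seeing the data. Sod3 was no longer called with any of them (adjusted p = 0.166, 0.174 and 0.278). The first estimate lay above the 0.67 found without a covariate, and the others below it. Each covariate also lowered the number called over all genes, from 221 to as few as 71 with choroid plexus markers. The loss of calls was therefore not particular to Sod3. Whether tissue composition bears on Sod3 was not tested. Leaving out Ts65Dn embryo 2 gave 0.65 with an adjusted p of 0.101. Within the embryos of either title number alone the log2 fold changes were 0.70 and 0.66. Neither was called (adjusted p = 0.232 and 0.660). In these smaller sets of embryos fewer genes were called over all genes as well.

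The other 7 genes did not pass the test in embryos. Cat, the peroxisomal catalase, measured 48.0, 61.97 and 63.9 CPM in euploid and 58.0, 65.4 and 78.1 CPM in Ts65Dn embryos, with 5 of 7 Ts65Dn embryos above every euploid one, and had a log2 fold change of 0.17 (SE 0.08, adjusted p = 0.383). Nfe2l2 measured 9.02, 10.7 and 15.05 CPM in euploid and 11.4, 13.3 and 14.5 CPM in Ts65Dn embryos, all 7 of them above the euploid median, with a log2 fold change of 0.21 (SE 0.10, adjusted p = 0.425). Hmox1 measured 4.35, 6.20 and 7.83 CPM in euploid and 5.47, 7.14 and 8.39 CPM in Ts65Dn embryos. The ranges lay largely on each other, and the log2 fold change was 0.19 (SE 0.13, adjusted p = 0.536). For Nqo1 the log2 fold change was 0.22 (SE 0.17, adjusted p = 0.575), and for Sod2, Gpx4 and Gpx1 it was 0.07, 0.04 and -0.04, with adjusted p-values from 0.603 to 0.876.

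In male hippocampus, Bach1 was the 1 gene of the 10 called between Ts65Dn and euploid animals, where 0.795% of 16851 genes tested were called. Bach1 measured 14.4, 15.3 and 18.8 CPM in euploid and 16.6, 22.6 and 23.2 CPM in Ts65Dn males. The lowest Ts65Dn value is that of B145, which lay within the euploid range, and the other 6 animals lay above it. The log2 fold change was 0.43 (SE 0.09, adjusted p = 0.031). Sod1 measured 103.3, 114 and 125.1 CPM in euploid and 98.3, 164 and 185 CPM in Ts65Dn males, and B145 was again the lowest, below every euploid animal. With it, the log2 fold change of Sod1 was 0.44 (SE 0.12) and missed the threshold (adjusted p = 0.110). Without the libraries at euploid dose it was 0.53 (adjusted p = 2.77e-07), and Sod1 and Bach1 were both called. These libraries were set apart by the median level of the other triplicated genes, which Sod1 and Bach1 followed, and only among those labelled trisomic. Leaving them out therefore raises both genes by selection, here and in the comparisons below, and p-values of such fits are no independent support. The other 131 triplicated genes tested had a median log2 fold change of 0.50 with these libraries included, and 55.0% were called.

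In males that carried Ts65Dn;Brwd1+/-, Sod1 and Bach1 were both called against euploid animals, where 0.576% of all genes were. Of the other 131 triplicated genes tested, 37.4% were called. Sod1 measured 107.1, 166.9 and 186 CPM, with a log2 fold change of 0.45 (SE 0.11, adjusted p = 0.0997), just inside the threshold. Bach1 measured 15.8, 21.6 and 25.5 CPM, with a log2 fold change of 0.38 (SE 0.09, adjusted p = 0.0677). The lowest value of both genes came from B138, and 6 of the 8 animals lay above every euploid male for either gene. Without the 2 libraries at euploid dose, T35 and B138, along with B145 in the shared fit, the log2 fold changes were 0.59 for Sod1 (adjusted p = 7.29e-08) and 0.49 for Bach1 (adjusted p = 2.77e-05). With all other libraries kept, leaving out a single one left Sod1 called in 3 of 16 fits (adjusted p up to 0.194) and Bach1 in 6 of 16 (up to 0.154). Neither was called without euploid B80, B79, B110 or B100 or Ts65Dn;Brwd1+/- B137, B94, B69, B51, B26 or B24, and 1 of them was without euploid B139, B122 or B84.

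In female hippocampus, Sod1 and Bach1 were both higher in Ts65Dn than in euploid animals, and they were the 2 called of the 10, where 3.17% of 17146 genes tested were called. Of the other 132 triplicated genes tested, 63.6% were called. Sod1 measured 99.2, 108 and 178.0 CPM in euploid and 146, 166.8 and 180.1 CPM in Ts65Dn females. All 8 Ts65Dn females lay above the euploid median, but 1 euploid animal, B125, reached their range while the next highest euploid value was well below it. The log2 fold change was 0.50 (SE 0.12, adjusted p = 0.033) with B125 and 0.62 (adjusted p = 0.000734) without it. Bach1 measured 9.99, 15.8 and 21.9 CPM in euploid and 19.6, 21.8 and 24.2 CPM in Ts65Dn females. Its lowest euploid value is B125 again and its highest is B85, so the animal with the most Sod1 had the least Bach1. The log2 fold change of Bach1 was 0.47 (SE 0.13, adjusted p = 0.0658), and it missed the threshold without Ts65Dn T139 or B103 or euploid B21 or B12 (adjusted p up to 0.127).

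In female Ts65Dn;Brwd1+/- animals Sod1 was the 1 gene called against euploid females, where 0.729% of all genes were. Of the other 132 triplicated genes tested, 42.4% were called. Sod1 measured 117.1, 169 and 257 CPM, with a log2 fold change of 0.57 (SE 0.12, adjusted p = 0.0206). Bach1 measured 12.4, 20.9 and 23.8 CPM, with a log2 fold change of 0.33 (SE 0.13, adjusted p = 0.356), and 6 of 8 animals lay above the euploid median. The highest Sod1 and the lowest Bach1 came from 1 animal, B176, whose pattern was like that of B125. Leaving out both B136, at euploid dose, and B85, with transcripts of the other sex, gave Bach1 a log2 fold change of 0.47 and an adjusted p of 0.0980, inside the threshold. With only the 2 groups compared in the fit, Sod1 had an adjusted p of 0.130.

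None of the 10 genes differed between Ts65Dn;Brwd1+/- and Ts65Dn animals of either sex, a comparison in which 0.0% of all genes were called in males and 0.0% in females with edgeR. In each sex 0 of the 10 genes reached an unadjusted p-value of 0.05 and DESeq2 called 0 of them. Of all genes, 1261 in males and 604 in females reached it, and DESeq2 called 1 and 14. The number called depended on RUVr factors, which remove variation shared by many genes and are estimated from the same libraries. With 1, 2 and 3 factors edgeR called 246, 419 and 584 genes in males and 42, 253 and 425 in females. DESeq2 with 3 factors called 993 and 840. Of the 10 genes, these fits called only Gpx4, in females with 2 or 3 factors. Sod1 differed by 0.01 in males and 0.07 in females on the log2 scale, and Bach1 by -0.04 and -0.15, with standard errors of 0.12 and 0.12 for Sod1 and 0.09 and 0.13 for Bach1. The comparisons with euploid and with Ts65Dn animals share groups, so their values are not independent. The sex by genotype interactions, which ask whether these differences were unequal in males and females, called 0.0% of 17427 genes for Ts65Dn against euploid and 0.0% for Ts65Dn;Brwd1+/- against Ts65Dn. None of the 10 genes was called or reached an unadjusted p-value of 0.05 in either, and DESeq2 called 0 of them. For all genes 1935 and 650 reached that p-value and DESeq2 called 94 and 1. With 3 RUVr factors edgeR called 2296 and 47 genes, Sod2 among the former.

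**Figure D2:**
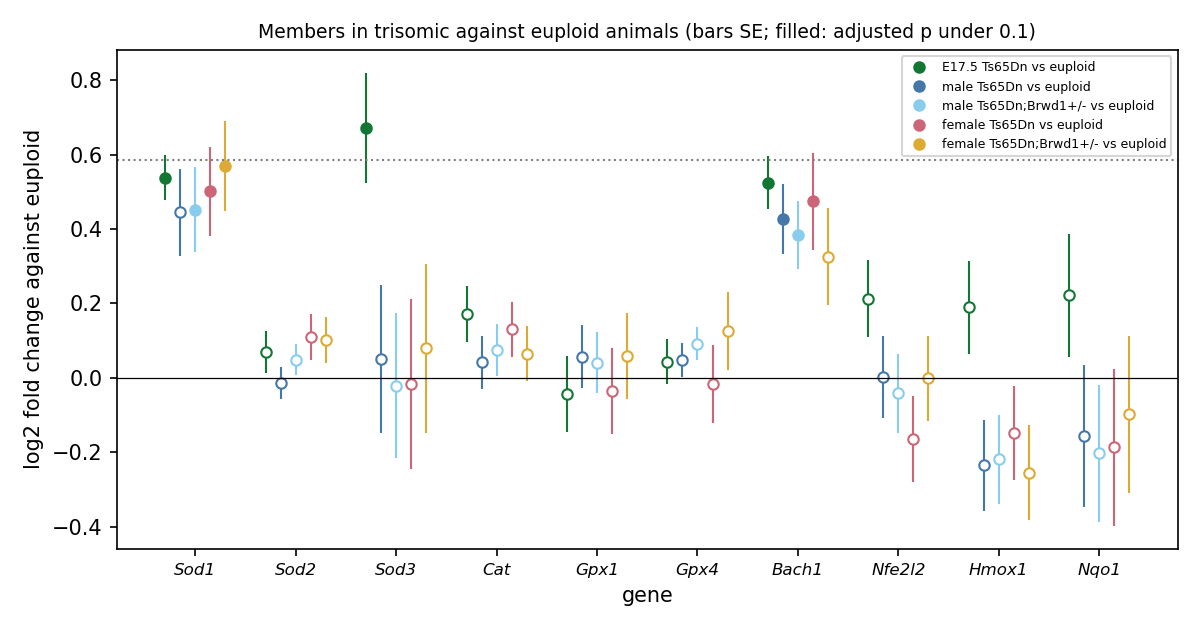
Log2 fold changes (y axis) of the 10 genes (x axis) in the comparisons of trisomic with euploid animals, drawn as points with ± 1 SE. Filled points passed edgeR's test at an adjusted p-value under 0.1, and the dotted line marks 0.585, the value for 3 copies over 2. Only Sod1, Bach1 and, in embryos, Sod3 have filled points.

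Hmox1, the BACH1 target named in the question (gene 15368, chr8:75093618-75100593), was not called in any comparison. Its estimates against euploid lay below 0 in the 4 adult comparisons and above 0 in embryos. In males it measured 3.65, 5.44 and 6.52 CPM in euploid, 3.29, 4.56 and 5.45 CPM in Ts65Dn and 3.28, 4.59 and 5.32 CPM in Ts65Dn;Brwd1+/- animals. Only 1 of 7 Ts65Dn males and 0 of 8 Ts65Dn;Brwd1+/- males lay above the euploid median, yet most lay within the euploid range. The log2 fold changes against euploid were -0.24 (SE 0.12, adjusted p = 0.600) and -0.22 (SE 0.12, adjusted p = 0.550). In females it measured 4.61, 4.94 and 5.94 CPM in euploid, 2.95, 4.89 and 6.13 CPM in Ts65Dn and 3.22, 4.31 and 5.63 CPM in Ts65Dn;Brwd1+/- animals, 6 of 8 of the last below every euploid female. Their log2 fold changes were -0.15 (SE 0.13, adjusted p = 0.642) and -0.26 (SE 0.13, adjusted p = 0.460).

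Of the libraries labelled trisomic that had euploid dose, B145, B138 and B136 held the highest Hmox1 of their groups, and T35 held the third highest of its group. Without those libraries the log2 fold changes against euploid were -0.29 in male Ts65Dn (SE 0.13, adjusted p = 0.468), -0.29 in male Ts65Dn;Brwd1+/- (SE 0.13, adjusted p = 0.367) and -0.32 in female Ts65Dn;Brwd1+/- animals (SE 0.13, adjusted p = 0.304), each from edgeR. None passed the threshold over all genes. These 3 comparisons share their euploid animals within a sex. Because B145, B138 and B136 held the highest Hmox1 of their groups, leaving them out lowers these estimates by itself. Whether the dose of the segments bears on Hmox1 was not tested.

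Nqo1, the quinone reductase (gene 18104, chr8:107388225-107403205), was not called in any comparison either. Its group medians lay between 3.69 and 4.45 CPM in adults, and single animals ran from 1.99 to 7.35 CPM. Log2 fold changes against euploid ran from -0.20 to -0.10 in the 4 adult comparisons, with standard errors of 0.18 to 0.21, so these libraries cannot tell them from 0. The highest Nqo1 of the Ts65Dn males was that of B88, at 6.88 CPM.

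**Figure D3:**
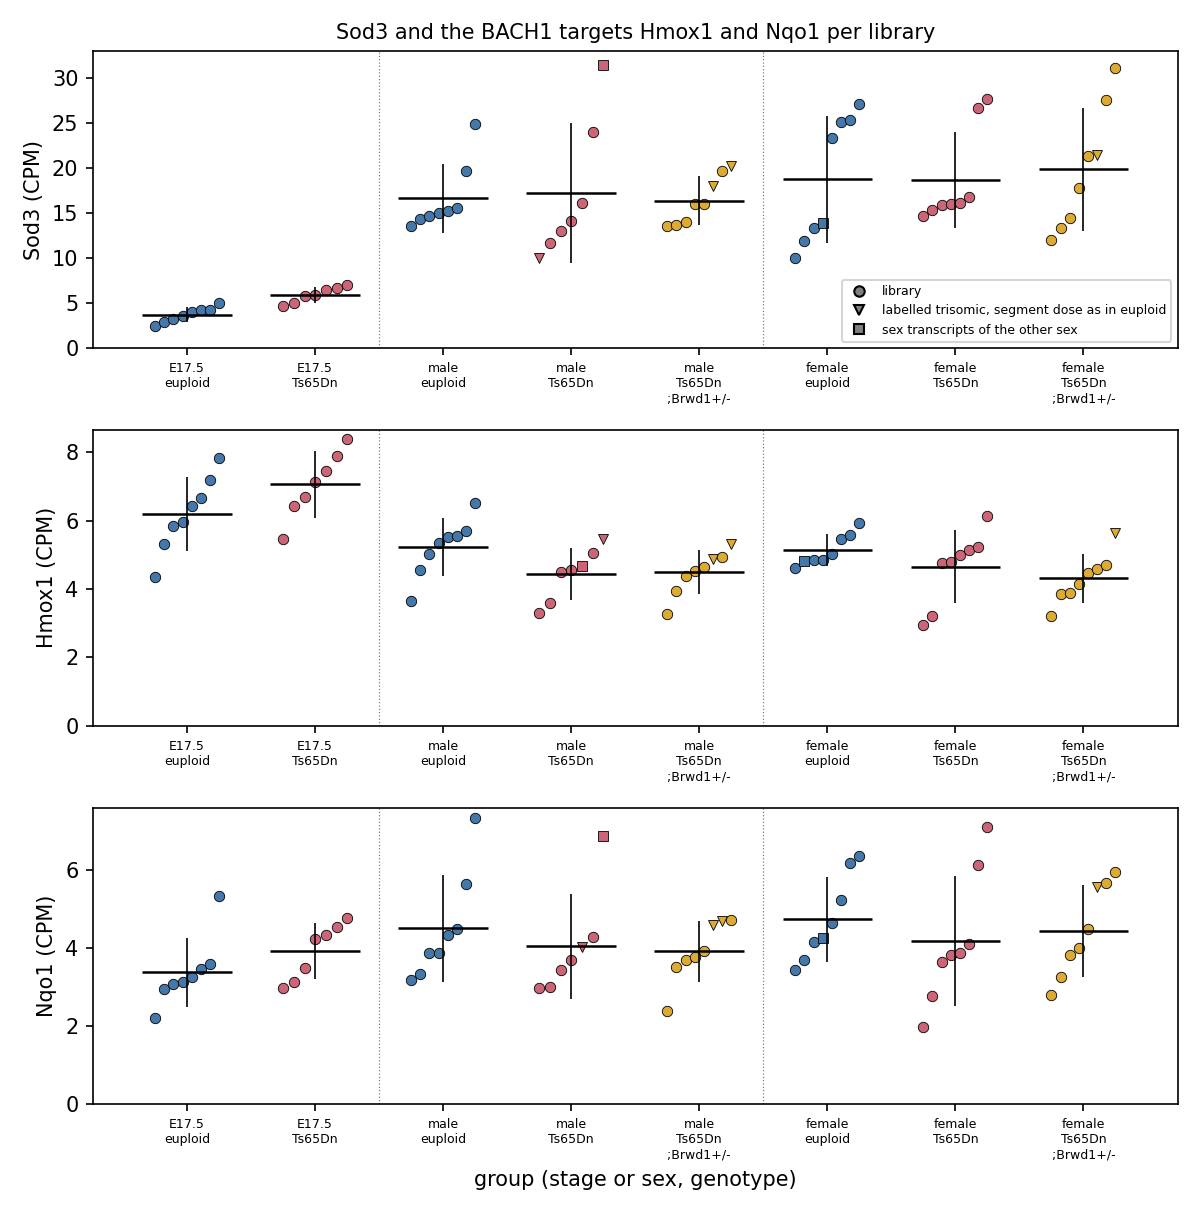
Sod3, Hmox1 and Nqo1 in CPM (y axes, starting at 0) by group (x axis), with points, bars and symbols as in the plot of Sod1 and Bach1. Sod3 is higher in most Ts65Dn embryos than in euploid ones, Hmox1 sits lower in most trisomic adults with the triangles near the top of their groups, and Nqo1 overlaps throughout.

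The enzymes outside the segments that handle superoxide and peroxide were not called in any adult comparison. Sod2, the mitochondrial dismutase (gene 20656, chr17:13007839-13018119, beyond the triplicated part of chromosome 17), had medians from 104 to 124.6 CPM and log2 fold changes against euploid from -0.01 to 0.11. Cat had medians from 47.8 to 51.7 CPM and log2 fold changes from 0.04 to 0.13. Gpx1, the cytosolic glutathione peroxidase, had medians from 43.6 to 48.9 CPM and log2 fold changes from -0.04 to 0.06, and Gpx4, which reduces lipid peroxides in membranes, had medians from 62.6 to 69.5 CPM and log2 fold changes from -0.02 to 0.12. Adult Sod3 had medians from 14.1 to 19.5 CPM, with single animals from 9.92 to 31.4 CPM, and log2 fold changes from -0.02 to 0.08. Nearest to the threshold by unadjusted p-value in the comparisons with euploid was Gpx4 in male Ts65Dn;Brwd1+/- animals (log2 fold change 0.09, adjusted p = 0.495 by edgeR), where 8 of 8 animals lay above the euploid median. Female euploid B125 held the highest Gpx1 (75.5 CPM) and Gpx4 (101.1 CPM) of its group besides the highest Sod1, and female Ts65Dn;Brwd1+/- B176 the highest Gpx4 (103.1 CPM).

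Because only the first enzyme of the sequence from superoxide to water was triplicated, the ratios of Sod1 to the peroxide-removing enzymes were compared within libraries, where scaling cancels. The log2 ratio of Sod1 to Gpx1 was 0.73 ± 0.19 (SD, n = 8) in euploid and 1.30 ± 0.16 (SD, n = 7) in Ts65Dn embryos, without overlap. The difference was 0.57 (exact permutation test, 2-sided, adjusted p = 0.00163 over 21 ratio tests). It was 0.38 in male Ts65Dn and 0.40 in male Ts65Dn;Brwd1+/- animals against euploid (exact permutation tests, adjusted p = 0.00522 and 0.00109), and 0.54 and 0.49 in females (adjusted p = 0.00109 in both exact tests). Each adult trisomic group had every animal above its euploid median for this ratio, and only the male Ts65Dn group overlapped with its euploid group. The log2 ratio of Sod1 to Cat was higher by 0.36 in Ts65Dn embryos, by 0.38 and 0.35 in the male and by 0.39 and 0.50 in the female trisomic groups (exact permutation tests, adjusted p from 0.0145 to 0.0392). In males 6 of 7 Ts65Dn and 6 of 8 Ts65Dn;Brwd1+/- animals lay above the euploid median. Smallest p-values of 0.000311 for 7 against 8 animals and 0.000155 for 8 against 8 are what these tests allow. Since Sod1 itself was higher and neither Cat nor Gpx1 was called, these ratios include the difference in Sod1 and are no separate evidence. In the libraries at euploid dose a higher ratio of Sod1 to Gpx1 did not come with higher Sod1.

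The log2 ratio of the repressor Bach1 to the activator Nfe2l2 was also higher in trisomic animals in 4 of 5 comparisons with euploid. It was 2.95 ± 0.34 (SD, n = 8) in euploid and 3.26 ± 0.13 (SD, n = 7) in Ts65Dn embryos, a difference of 0.31 (exact permutation test, adjusted p = 0.0291). Differences of 0.43 and 0.42 were found in male Ts65Dn and Ts65Dn;Brwd1+/- animals (exact permutation tests, adjusted p = 0.0087 and 0.0196) and of 0.68 in female Ts65Dn animals (adjusted p = 0.0171, exact). In female Ts65Dn;Brwd1+/- animals the difference of 0.32 did not pass (exact permutation test, adjusted p = 0.237), and 6 of 8 animals lay above the euploid median. Bach1 itself was called in the same 4 comparisons and Nfe2l2 in none. These ratios therefore carry the difference in Bach1 and are no separate evidence. All 6 tests of Ts65Dn;Brwd1+/- against Ts65Dn, over the 3 ratios and both sexes, missed the threshold (adjusted p from 0.119 to 0.936, exact). The smallest was for Bach1 to Nfe2l2 in females, where 0 of 8 animals lay above the Ts65Dn median and the difference was -0.37. Over the 47 adult libraries, Pearson's r with choroid plexus markers was 0.73 for Nfe2l2 and -0.22 for Bach1. In females these markers had median log2 fold changes of -0.41 (Ts65Dn against euploid) and 0.32 (Ts65Dn;Brwd1+/- against Ts65Dn), and Nfe2l2 had -0.16 and 0.16. In males the markers had -0.21 and -0.13, and Nfe2l2 0.00 and -0.04. Whether tissue composition bears on these ratios was not tested.

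**Figure D4:**
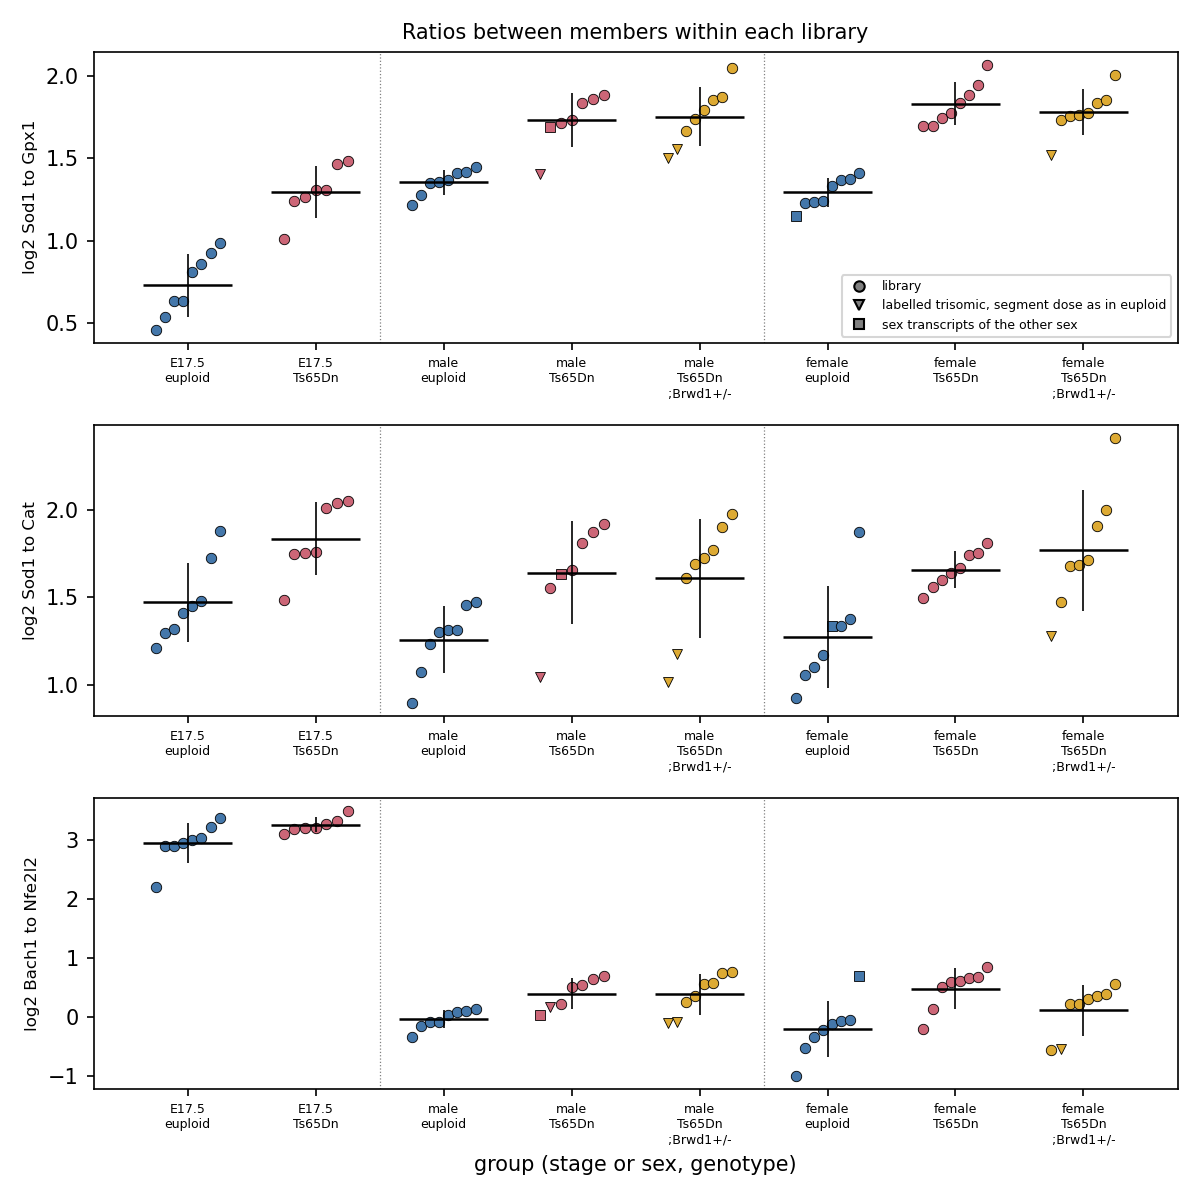
Log2 ratios within a library (y axes) of Sod1 to Gpx1, Sod1 to Cat and Bach1 to Nfe2l2 by group (x axis), 1 point per library with the group mean and ± 1 SD and symbols as in the plot of Sod1 and Bach1. Ratios are higher in the trisomic groups than in euploid ones, and for Sod1 to Gpx1 only the male Ts65Dn group overlaps with its euploid group.

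Relative to the median of the other triplicated genes in the same library, Sod1 and Bach1 did not differ between groups beyond the spread of the animals. The 10 differences, over both genes in the 3 comparisons of Ts65Dn with euploid and the 2 of Ts65Dn;Brwd1+/- with Ts65Dn, ran from -0.12 to 0.10 on the log2 scale, and none passed an exact permutation test (adjusted p from 0.698 to 0.928). In Ts65Dn embryos they were -0.04 for Sod1 and -0.05 for Bach1, with standard deviations of single embryos of 0.12 for Sod1.

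Beyond these genes, 110 genes of 7 pathway lists were counted, the triplicated Cbr1 and Cbr3 among them. In embryos 3 of 107 tested were called, all higher, against 1.35% of all genes. In male Ts65Dn animals 3 were higher and 1 lower of 110, against 0.795%, and in female Ts65Dn animals 6 were higher of 110, against 3.17%. In Ts65Dn;Brwd1+/- animals 2 of 110 were called against euploid in either sex, where 0.576% of all genes were in males and 0.729% in females, and against Ts65Dn none was called by edgeR or DESeq2 in either sex, with 7 in males and 6 in females at an unadjusted p-value under 0.05. The 12 genes that control NRF2 and BACH1, such as Keap1, the adaptor that marks NRF2 for degradation, and the small MAF partners, had 0 called in all 7 comparisons, as had 20 peroxiredoxins and thioredoxins, 21 genes of heme and iron handling and the 11 (embryos) or 13 (adults) tested genes of superoxide sources and SOD1's copper supply. With 0.0% to 3.17% of all genes called, lists of this size would hold fewer than 1 called gene at that share, so these counts say nothing particular about the lists.

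Of 24 targets of BACH1 and NRF2 other than Hmox1 and Nqo1, those called outside the triplicated segments were Me1 and G6pdx, both in female Ts65Dn against euploid animals. The list's median log2 fold change was 0.03 in embryos, -0.01 in male Ts65Dn and 0.05 in female Ts65Dn animals, against -0.01, 0.00 and -0.02 over all genes tested. Cbr1 and Cbr3, carbonyl reductases that use NADPH, are on the list and lie in the triplicated segment of chromosome 16. Cbr1 measured 54.0, 58.7 and 66.4 CPM in euploid and 81.6, 91.9 and 100.8 CPM in Ts65Dn embryos, and was called in all 5 comparisons with euploid, with log2 fold changes from 0.47 to 0.61. Cbr3 was called in the Ts65Dn animals of both sexes, at 0.56 in males and 0.68 in females. Me1, the malic enzyme that makes NADPH, measured 34.6, 43.8 and 49.6 CPM in euploid and 47.7, 49.9 and 57.7 CPM in Ts65Dn females, with a log2 fold change of 0.23 (SE 0.06, adjusted p = 0.0618). G6pdx, the first enzyme of the pentose phosphate pathway, measured 26.3, 28.3 and 32.8 CPM in euploid and 30.7, 32.7 and 35.04 CPM in Ts65Dn females, with a log2 fold change of 0.20 (SE 0.06, adjusted p = 0.0811). For both, 8 of 8 Ts65Dn females lay above the euploid median and 4 of 8 above every euploid female.

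The promoters of these targets and of Nfe2l2 are shown with the core of the antioxidant response element in capitals, on either strand, from RefSeq on GRCm38.p6. All 3 genes lie on the minus strand and the letters run along that strand. The Me1 stretch ends 3 bases past the start and the Nfe2l2 and G6pdx stretches lie before it.
Me1, chr9:86695912-86696004: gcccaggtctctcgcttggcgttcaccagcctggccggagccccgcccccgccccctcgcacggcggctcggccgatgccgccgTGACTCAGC
G6pdx, chrX:74428881-74428970: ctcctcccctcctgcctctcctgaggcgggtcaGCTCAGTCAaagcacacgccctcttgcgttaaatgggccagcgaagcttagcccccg
Nfe2l2, chr2:75704854-75704913: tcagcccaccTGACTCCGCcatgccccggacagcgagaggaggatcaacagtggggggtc
The core was in 28.0% of the 25 windows of the target list, against the 12.4% of all windows given above.

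Outside the target list, Selenov was called in all 5 comparisons with euploid. It encodes a selenoprotein and was little expressed, with group medians of 0.538 to 0.632 CPM in euploid animals and 1.51 to 2.34 CPM in trisomic ones. Every Ts65Dn embryo and every trisomic male lay above all euploid animals of its comparison. The log2 fold changes were 1.82 in embryos, 1.85 and 1.70 in the male and 1.48 and 1.48 in the female trisomic groups, with adjusted p-values from 0.00905 to 0.0183. Selenov lies outside the triplicated segments, yet the libraries labelled trisomic with euploid dose had the lowest Selenov of their groups, with 0.735 CPM in B145, 0.701 in T35, 0.772 in B138 and 0.459 in B136. The other trisomic adults measured 1.18 to 2.86 CPM. Without those 4 libraries the log2 fold changes were 1.98 in male Ts65Dn, 1.93 in male Ts65Dn;Brwd1+/- and 1.63 in female Ts65Dn;Brwd1+/- animals. Mgst1, a membrane-bound glutathione transferase, measured 4.58, 6.66 and 7.70 CPM in euploid and 6.72, 9.66 and 13.3 CPM in Ts65Dn embryos, with a log2 fold change of 0.58 (SE 0.14, adjusted p = 0.0677), beside the markers of other cell types given with Sod3. Glrx2, a mitochondrial glutaredoxin, was higher by 0.41 in female Ts65Dn animals (adjusted p = 0.0456), and Sephs2, which makes the selenium donor for selenoproteins, fell by 0.18 on the log2 scale in male Ts65Dn animals (adjusted p = 0.0598). That was the single list gene called lower.

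Over the 47 adult libraries, the genes most like each of the 10 were named by Pearson's r of log2 CPM among 16050 genes, as a description, since the libraries share depth, tissue composition and genotype. For Sod1 they were Atp5o (0.99), Atp5j (0.98) and Cbr1 (0.97), all on the triplicated segment of chromosome 16. The first 2 encode subunits of the mitochondrial ATP synthase, and within groups their r was still 0.98. For Bach1 they were Tulp4 (0.89), Jam2 (0.89) and Ltn1 (0.87), all triplicated as well. Gpx4 was most like Sdhb (0.92) and Cox4i1 (0.91), subunits of the respiratory chain, and Gpx1 like Tex264 (0.87), Atox1 (0.85), the copper chaperone, and Rabac1 (0.835). Sod3 followed Gas6 (0.93), Spint2 (0.93) and Igfbp2 (0.92), and Sod2 followed Hspa4l, Gnl3l and Eif5a2 (0.88 to 0.87). For Nfe2l2 the first was Nxn (0.87), for Nqo1 Bmp6 (0.88), and Bmp6 was also among the 3 most like Nfe2l2 (0.82). With the choroid plexus markers, r was 0.84 for Sod3, 0.83 for Nqo1 and 0.73 for Nfe2l2. The others of the 10 genes ran from -0.22 (Bach1) to 0.41 (Cat). Cat was most like 3 genes of its own chromosome 2, 5330413P13Rik (0.74), B2m (0.67) and Prrg4 (0.64), and Hmox1 had the weakest likeness, to Npepl1 (0.60), Pnrc2 (0.60) and F3 (0.56).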

How the data were processed

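RNA was sequenced as polyA libraries (TruSeq v2, single reads, a kit that does not mark strand) from E17.5 forebrain and from hippocampus at 6 weeks. The authors mapped reads to mm10 with HISAT2 (2.2.1 in the paper, 2.1.0 in the submitters' processing notes), counted them per gene with featureCounts 2.0.1 and deposited raw counts, without normalization, for 27179 genes named by Entrez identifier. For annotation the paper names Ensembl 90, and for its tests DESeq2 1.6.3 after RUVr 1.24.0 with an FDR cutoff of 0.1 but no number of factors. Because strand was not marked, reads of overlapping genes cannot be told apart.

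Symbols and positions came from RefSeq for 25275 genes and from GENCODE for 18. The triplicated segments were taken as chromosome 16 distal of 84718281, the start of Mrpl39, and chromosome 17 proximal of 8986648, where Pde10a ends. Tests on the counts were edgeR's robust quasi-likelihood tests (edgeR 4.0.16, R 4.3.3) after filterByExpr (minimum count 10) and TMM scaling, with Benjamini-Hochberg adjustment over all genes tested and calls at 0.1. Males of all 3 genotypes were fitted together, as were females, and interactions used all 6 adult groups. Levels are TMM-scaled CPM, and log2 CPM used a prior count of 0.5. Ratios and doses relative to the other triplicated genes were tested by exact permutation of animals (scipy 1.17.1), 2-sided, with adjustment over 21 and 10 tests. Scripts were tested on simulated data.

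The 10 genes, the gene lists and the rules were chosen with earlier results of these data known. Named are these 10 genes, up to 3 called genes per list, direction and comparison with the smallest p-values, and the 3 adult genes most correlated with each of the 10 (for Gpx4 2 are given, and not all for Nfe2l2 and Nqo1). G6pdx is named outside this rule, since it ranked below the 3 called targets with the smallest p-values in female Ts65Dn animals. Alternatives were DESeq2 1.42.0, 1 to 3 RUVr factors, upper-quartile scaling, no filter, 10 counts in every library, an adjusted p-value of 0.05, other sets of groups, title-number and identifier subsets, covariates, and the omission of libraries. Leaving out each library in turn and the marker covariates in embryos were added after seeing the data. Besides the title number, the embryo titles give each embryo a replicate number within its genotype. Over 7 pairs with the same number, deviations from the group means correlated from -0.133 to 0.229, over 0.1 in 3 pairs, so the numbers were not taken to pair the animals. No library was found to repeat another: the smallest chi-square per degree of freedom within a group was 8.66. No library was left out of the main values. Median depth per group is 23.8 M to 67.2 M reads, and at 42 reads or more each of the 10 genes could be tested.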

Additional observations from a re-analysis of the deposited data

Results flagged for a closer look

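In 9 of 80 checks of the 10 genes within a group of 7 or 8 animals, a single library stood far from the rest by Dixon's criterion. Chance gives about 1 in 20, and some libraries were flagged for more than 1 gene. Male Ts65Dn B145, whose triplicated segments were at euploid dose, was low for Sod1 (6.62 log2 CPM against 7.24 to 7.53 in the others) and for Bach1 (4.05 against 4.38 to 4.53). Female euploid B125 was high for Sod1 (7.48 log2 CPM), Gpx1 (6.24) and Gpx4 (6.66), and female Ts65Dn;Brwd1+/- B176 was high for Gpx4 (6.69). Male Ts65Dn;Brwd1+/- B51 was low for Cat (5.43) and for Nqo1 (1.26), and male Ts65Dn B88, with the sex-linked transcripts of the other sex, was high for Nqo1 (2.78 log2 CPM against 1.58 to 2.101). What sets these libraries apart was not tested.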

How the results depend on the processing

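Of the 10 genes, 3 were called in embryos, and 5 with 2 or 3 RUVr factors (edgeR) or 3 factors (DESeq2), Cat and Nfe2l2 being added, while 1 (Sod1) was called in embryos with the higher of the title numbers alone and 2 (Sod1 and Bach1) in those with the lower. With the embryo number as a replicate block, 3 were called, as without it, with Sod3 at 0.68 and an adjusted p of 0.0673, and this block changed no call. In male Ts65Dn against euploid animals 1 was called, and 2 (Sod1 added) with DESeq2, with 1, 2 or 3 RUVr factors, with 3 factors in DESeq2, with only the groups compared, without the libraries at euploid dose, without these and those of the other sex, or with B identifiers only, but 0 with all 6 adult groups in a fit. Leaving out single libraries gave 1 to 2 there, 2 without B145. In male Ts65Dn;Brwd1+/- against euploid animals 2 were called, 0 at an adjusted p under 0.05, 3 (Gpx4 added) with DESeq2 and 3 factors, and 1 with upper-quartile scaling, without the filter, with a choroid plexus covariate or with all 6 groups. Single libraries left out gave 0 to 2: 0 without euploid B80, B79, B110 or B100 or Ts65Dn;Brwd1+/- B137, B94, B69, B51, B26 or B24, and 1 without euploid B139, B122 or B84, so Sod1 and Bach1 lay at the threshold. In female Ts65Dn against euploid animals 2 were called, 1 at 0.05 or with B identifiers only, 4 with 3 RUVr factors in edgeR or DESeq2, and 1 to 2 with a library left out (1 without Ts65Dn T139 or B103 or euploid B21 or B12). In female Ts65Dn;Brwd1+/- animals the 1 call against euploid became 3 with 1 factor, 4 with 2 or 3 (also in DESeq2), 0 with only the groups compared, 2 without both kinds of library, and 1 to 2 with a library left out (2 without B125, Gpx4 added), while the 0 against Ts65Dn became 1 (Gpx4) with 2 or 3 factors in edgeR or 3 in DESeq2. The first sex interaction called 1 (Sod2) with 3 factors. List genes called rose with DESeq2 from 3 to 6 in embryos, 4 to 7 and 2 to 6 in the male and 6 to 10 and 2 to 4 in the female comparisons with euploid. At 0.05 the male counts were 2 and 1, and in male Ts65Dn;Brwd1+/- animals 5 without the libraries at euploid dose and 6 without both kinds. Bach1 to Nfe2l2 in female Ts65Dn;Brwd1+/- animals passed without other-sex libraries (0.45) or both kinds (0.54). It missed in embryos of the lower title number (0.16), as did Sod1 to Cat in those of the higher (0.31), where few embryos limit the p. Signs turned, with no call, for Bach1 relative to the triplicated genes in female Ts65Dn (0.024 without other-sex libraries, 0.024 without both kinds) and in male Ts65Dn;Brwd1+/- against Ts65Dn animals (-0.0259 with the mean of the other genes), and in the latter for Sod1 to Cat (0.0374 without libraries at euploid dose, 0.016 without both kinds) and Bach1 to Nfe2l2 (0.11 and 0.0288). The causes were not tested. All alternatives run for Sod1 to Gpx1 and for Sod1 relative to its neighbours kept direction and call. Hmox1, Nqo1 and Sod3 had standard errors of 0.12 to 0.23 on the log2 scale.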

Other observations

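Apart from Sod3 in embryos, the genes of the 10 that lie outside the triplicated segments reached the threshold in settings with RUVr factors, and otherwise in 1 fit, without female euploid B125 (Gpx4 in female Ts65Dn;Brwd1+/- against euploid animals, log2 fold change 0.23, adjusted p = 0.0999). The factors remove variation shared by many genes and are estimated from the same libraries. Gpx4, the lipid peroxide reductase, was 0.13 higher on the log2 scale in female Ts65Dn;Brwd1+/- than in euploid animals (adjusted p = 0.0126 with edgeR and 1 factor) and 0.13 higher than in Ts65Dn animals (adjusted p = 0.0583 with 2 factors). In male Ts65Dn;Brwd1+/- against euploid animals it was 0.09 higher (adjusted p = 0.0798 with DESeq2 and 3 factors). Sod2, the mitochondrial dismutase, was 0.11 higher in female Ts65Dn than in euploid animals (adjusted p = 0.0423 with edgeR and 2 factors). In embryos with 3 factors in edgeR, Cat was 0.17 higher (adjusted p = 0.0685) and Nfe2l2 0.22 higher (adjusted p = 0.0359) in Ts65Dn, while Nfe2l2 in female Ts65Dn animals had a log2 fold change of -0.18 (adjusted p = 0.0806).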
